A study of Mus musculus with 12 samples.

Results

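Regions of C2C12 chromatin that carried a called peak of monomethylated lysine 4 of histone H3 (H3K4me1) with vehicle and none with the LSD1 inhibitor S2101, and no peak of di- or trimethylated lysine 4 (H3K4me2, H3K4me3) in either treatment, were described by position, width, score and surroundings. The peaks of 6 lists, 1 per mark and treatment, were merged where they overlapped by 1 bp or more into 51372 regions. Of these, 18882 regions (36.8%) met the rule and are called vehicle-only regions below. C2C12 is an established line of mouse muscle precursor cells, which form multinucleated myotubes after serum is withdrawn. All cells had been moved to medium with 2% horse serum and 25 mM glucose for 48 h (day 2), with either S2101 at 10 µM or vehicle. The labels give no genetic change in any group. H3K4me1 and H3K4me2 were measured in experiment 1 and H3K4me3 in experiment 2, so mark and experiment cannot be told apart. There was 1 library per mark and treatment, so the values are descriptive and carry no p-value.

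H3K4me1 marks enhancers, the distal elements that raise transcription of their target genes, and it also lies on the shoulders of active promoters. H3K4me2 is found at enhancers and promoters that are accessible to transcription factors, and H3K4me3 at active promoters. A region with H3K4me1 alone is therefore the usual picture of a weak or primed distal element. LSD1 (Kdm1a) is a flavin-dependent demethylase that takes methyl groups off mono- and dimethylated lysine 4, and it acts at enhancers when cells leave one state for another. In muscle precursors it takes part in the switch from proliferation to differentiation.

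The members were chosen by the H3K4me1 lists themselves, so their presence with vehicle and their absence with S2101 are the rule and not a finding. Of the 27056 regions with vehicle H3K4me1 and neither other mark, 69.8% were vehicle only (95% Wilson interval 69.2 to 70.3%, counting error only), and the other 8174 also had an S2101 H3K4me1 peak. The corresponding share was 57.0% of the 9218 vehicle H3K4me1 regions that did hold H3K4me2 or H3K4me3. It was 66.5% of all 36274 vehicle H3K4me1 regions. The 9218 regions were merged with peaks of those marks, and any S2101 H3K4me1 peak inside such a region counted. Neither width nor score was held, so these shares are not like for like. Counted by peaks, 67.0% of the vehicle H3K4me1 list had no S2101 counterpart. The S2101 H3K4me1 list was shorter, with 20664 peaks against 40432. The number of reads behind either list is unknown, so a place without a listed peak may still carry the mark. With the vehicle list shortened to the length of the S2101 list, 6893 regions met the rule, and with vehicle peaks of score 200 or more only, 5412 did.

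Vehicle-only regions were narrow and mostly of low score. Each consisted of a single vehicle peak, which the merging and the rule fix in advance. Together they held 46.7% of the peaks and 37.0% of the length of the vehicle H3K4me1 list (9.95 of 26.9 Mb). Their median width was 473 bp (quartiles 373 and 613 bp, range 149 to 3279 bp). With a minimum score of 200 in all 6 lists, where 10122 regions met the rule, it was 755 bp, and with that minimum in the vehicle H3K4me1 list alone 709 bp. The score is the peak caller's own value and ranks peaks within a list; the lists start at 100. The median score of the vehicle-only regions was 152 (quartiles 119 and 212), and 71.3% of them stood below 200. For comparison, the 8174 regions listed in both treatments had a median vehicle score of 271, and 32.8% of them stood below 200. These regions are unions of vehicle and S2101 peaks, and 446 of them hold more than 1 vehicle peak. Their median width was 818 bp as merged and 721 bp for the highest-scoring vehicle peak alone. Peaks over 1 kb made up 4.18% of the members (789 regions) and 26.6% of those vehicle peaks. Regions of H3K4me1 alone listed with S2101 only were narrower still, with a median of 314 bp, and 92.1% of them stood below 200 in their own list, so a narrow, low-scoring peak was not particular to vehicle. Width and score rose together among the members (Spearman's rho 0.83 over 18882 regions, which share 1 library and the same peak caller). How the caller derives the score is not stated, so score and width may not be independent.

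The higher the vehicle score, the smaller was the part of the regions listed with vehicle only. The 27056 regions were divided by vehicle score into 10 bins of equal size, from bin 1 (lowest) to bin 10. In bin 1 (scores 100 to 109), 89.4% of regions were vehicle only (95% Wilson interval 88.1 to 90.5%). The share was 79.7% in bin 5 (scores 151 to 173), 61.0% in bin 8 (241 to 304) and 23.0% in bin 10 (21.4 to 24.6%; scores above 423). It fell at every step from 1 bin to the next. Bin 10 still held 622 vehicle-only regions, 3.29% of all members, with a median width of 1181 bp. Counting only the highest-scoring vehicle peak of each region, the median width was 321 bp for vehicle-only and 336 bp for both-treatment regions in bin 1, 482 and 494 bp in bin 5, and 1181 and 1310 bp in bin 10. The vehicle-only peaks were the narrower in each bin, but a wider peak meets an S2101 peak by 1 bp more easily, so part of this follows from the rule.

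**Figure D1:**
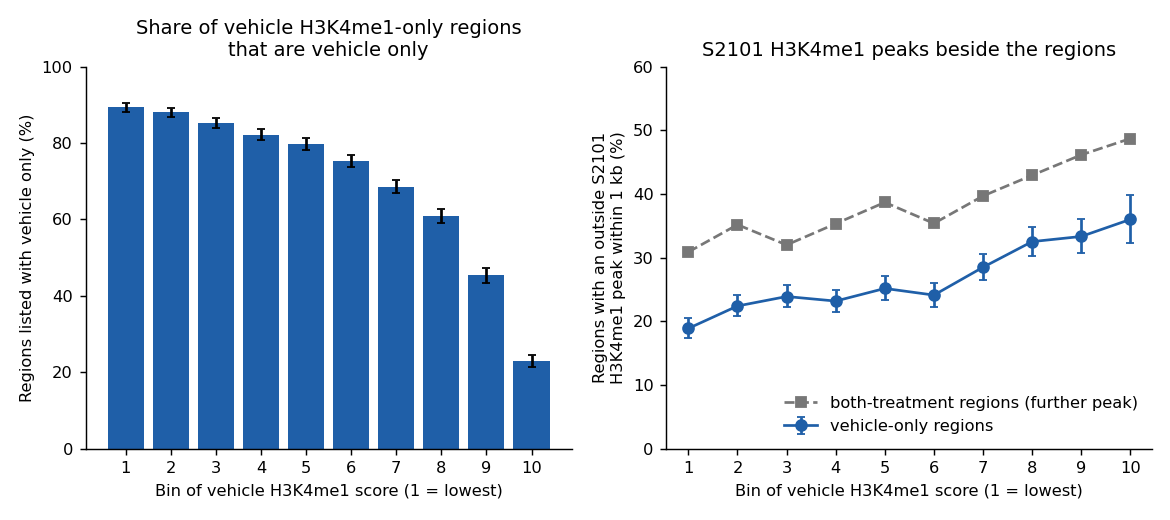
Left, share of vehicle H3K4me1-only regions that were listed with vehicle only (percent, bars with 95% Wilson intervals) in 10 bins of the vehicle score; it falls from 89.4% to 23.0%. Right, percent of vehicle-only regions (circles, 95% Wilson intervals) with an S2101 H3K4me1 peak within 1 kb, and of both-treatment regions (squares) with a further S2101 peak within 1 kb outside the region; it rises from 18.9% to 36.0% for the vehicle-only regions.

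Many members had an S2101 H3K4me1 peak close by, without overlap. The nearest one lay at a median of 6.26 kb (quartiles 0.975 and 30.5 kb, over the 18877 members on sequences with any S2101 H3K4me1 peak). It was within 500 bp for 16.4% of them (3103 regions) and within 1 kb for 25.4% (4792 regions, 95% Wilson interval 24.8 to 26.0%). At the other end, 18.0% of members had none within 50 kb. The 4792 members shared 4299 different nearest S2101 peaks. For 56.5% of these members the peak belonged to a region listed in both treatments, for 27.8% to a region of H3K4me1 alone that was listed with S2101 only, and for 15.7% to a region that held H3K4me2 or H3K4me3. Such a place is a neighbouring peak in the first case and, in the second, a listed peak that stood beside the vehicle peak and not under it.

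Members with high scores more often had such a neighbour. The share with an S2101 H3K4me1 peak within 1 kb was 18.9% in bin 1 and 36.0% in bin 10 (32.3 to 39.9%). Both-treatment regions had a further S2101 peak within 1 kb outside their own bounds in 30.9% and 48.7% of cases in the same bins. Within score bins, the share was lower for the vehicle-only than for the both-treatment regions by 11.6 percentage points on the weighted average, and lower in 10 of 10 bins. The same S2101 list set the rule, and S2101 peaks widen the bounds of both-treatment regions. This gap is therefore not independent of the rule. Of the 622 members in bin 10, 146 had an S2101 peak within 500 bp and 172 had none within 10 kb.

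The rule has a sharp edge, because 1 bp of overlap decides. There were 609 members (3.23%) within 100 bp of an S2101 peak, and 311 both-treatment regions (3.80%) whose vehicle and S2101 peaks shared less than 100 bp. Just inside the rule, 5 members touched an S2101 peak without sharing a base. The first 3 by position were on chromosome 12 (mm9, 87377109 to 87377553), chromosome 19 (41064182 to 41064616) and chromosome 3 (95906868 to 95907348), with scores of 128, 143 and 183. Just outside it, regions on chromosome 13 (35258217 to 35258944, of score 188), chromosome 16 (57418273 to 57419101, of score 103) and an unplaced sequence of chromosome 1 (280470 to 282434, of score 414) were listed in both treatments through 1 shared bp. The scores are those of the vehicle peaks.

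Vehicle-only regions stood apart from other vehicle H3K4me1 peaks more often than regions listed in both treatments. The next vehicle H3K4me1 peak outside the region was at a median of 1.03 kb from the members and at 0.393 kb from both-treatment regions, and it lay within 1 kb for 49.6% and 65.8% of them. With the score held, that is within score bins and averaged, the difference was −11.0 percentage points, with the same sign in 10 of 10. The bounds of both-treatment regions include S2101 peaks, which can shorten their distances. For regions of H3K4me1 alone listed with S2101 only, the median was 1.25 kb and the share within 1 kb 46.7%, so such spacing was not particular to the members. When vehicle H3K4me1-only regions within 10 kb of each other were stitched into clusters, 5244 members (27.8%; 27.1 to 28.4%) stood alone, against 15.4% of both-treatment regions (14.6 to 16.2%). This difference was 8.24 points with the score held, again with the same sign in 10 of 10 bins. A further 5461 members (28.9%) were in clusters made up of vehicle-only regions, and 8177 (43.3%) shared a cluster with at least 1 region listed in both treatments. Regions that also held H3K4me2 or H3K4me3 were not stitched. Counting every vehicle H3K4me1 peak, 21.7% of members and 10.7% of both-treatment regions had no other within 10 kb.

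The larger the cluster, the smaller was its vehicle-only share. It was 80.7% for regions standing alone (79.7 to 81.6%), 73.3% in clusters of 2, 69.2% in clusters of 3 to 4, 62.0% in clusters of 5 to 9, and 57.5% (55.7 to 59.3%) in the 223 clusters of 10 or more. Scores rose with cluster size as well: the median score of the members was 142 when alone and 170 in the largest clusters. Within each of the 10 score bins, the vehicle-only share was still higher for regions standing alone than for those in clusters of 10 or more. In bin 1 the values were 91.9% and 85.5%, and in bin 10 they were 30.8% and 18.8%. Peak width was not held. The vehicle-only label comes from the S2101 H3K4me1 list, and S2101 peaks widen the bounds of the both-treatment regions that were stitched. The shares by cluster size are therefore not independent of the rule. Enhancers of strongly expressed genes are often found in clusters. The regions stitched here hold no H3K4me2 or H3K4me3 peak by the rule, and such a role was not tested for them.

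**Figure D2:**
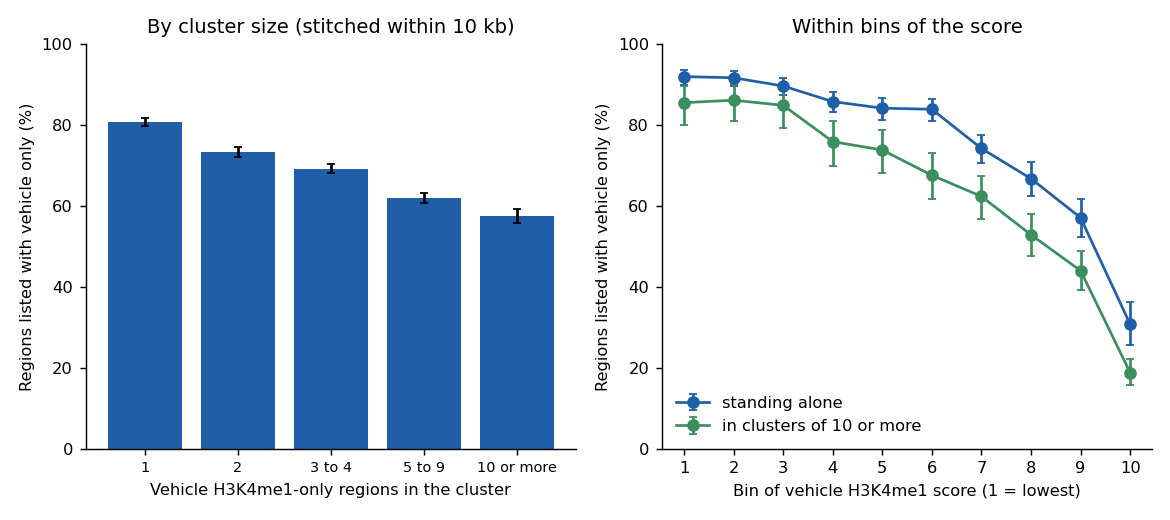
Share of vehicle H3K4me1-only regions listed with vehicle only (percent, 95% Wilson intervals), left by the number of such regions stitched within 10 kb and right by bin of the vehicle score for regions standing alone (blue) and in clusters of 10 or more (green). The share falls from 80.7% to 57.5% with cluster size, and the blue points lie above the green ones in all 10 bins.

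Beside a member, a close neighbour was more often vehicle only than beside a both-treatment region. The nearest other vehicle H3K4me1-only region within 2 kb was vehicle only in 67.7% of cases beside a member and in 55.3% beside a both-treatment region. At 10 to 50 kb the values were 73.5% and 73.8%, and beyond 50 kb they were 81.2% (79.3 to 83.0%) and 74.0% (68.8 to 78.6%), so the gap did not shrink steadily with distance. Over all vehicle H3K4me1-only regions the share was 69.8%, above both values within 2 kb. For neighbours within 10 kb, the neighbour of a member was the more often vehicle only in each of the 10 bins of the neighbour's score, by 6.47 percentage points on average and by between 1.34 and 9.74. The score of the first region was not held. Both labels come from the S2101 H3K4me1 list that the rule used, so these values describe that list along the genome and are no separate evidence.

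The 5 clusters with the most members held vehicle-only and both-treatment regions side by side. The first, on chromosome 5 (125585856 to 125669383, 83.5 kb), had 20 members among 32 regions, with member scores from 104 to 802. The cluster on chromosome 4 (45447584 to 45531755) had 18 of 38, and its strongest both-treatment region, of score 1562, exceeded its strongest member, of score 934. On chromosome 1 (92913650 to 92995607), 18 of 22 regions were vehicle only, 11 of them in an unbroken row. The cluster on chromosome 9 (63545324 to 63596463) had 16 of 26, and there the strongest region was a member, of score 690 against 601. On chromosome 5 (36697979 to 36736416) there were 15 of 27. The clusters on chromosome 9 and the second on chromosome 5 had no H3K4me3 peak in either treatment within their bounds.

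Clusters in which every region was vehicle only were smaller. The largest lay on chromosome 13 (94936575 to 94961275) with 10 regions in 24.7 kb and scores from 110 to 341. Its bounds held 12 vehicle H3K4me1 peaks in all and 1 S2101 H3K4me1 peak, which lay outside the 10 regions. They also held 2 vehicle H3K4me2 peaks but no S2101 H3K4me2 peak. The next, on chromosome 12 (71633587 to 71660577), had 9 regions in 27.0 kb with scores from 120 to 261. No peak of another mark, and no S2101 peak of any mark, lay within its bounds. It was therefore a stretch in which the vehicle H3K4me1 list alone had entries. These clusters were picked by the rule's own measure and describe its extremes.

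Of the 10 members with the highest scores, 9 had an S2101 H3K4me1 peak within 5 kb. The first lay on chromosome 1 (157082723 to 157086001, 3279 bp, score 1515) and was also the widest. An S2101 H3K4me1 peak of 319 bp and score 187 ended 95 bp before it, and an H3K4me3 peak of score 3116 with vehicle lay 4.5 kb away, so this was a wide block beside a promoter-like region. The second, on chromosome 17 (56469782 to 56471700, score 1357), had its nearest S2101 peak at 2.15 kb, of score 120, and vehicle H3K4me3 at 3.24 kb. The third, on chromosome 2 (27749934 to 27751672, score 1206), had 8 other members and 11 both-treatment regions within 50 kb. That on chromosome 11 (100489406 to 100491272, score 1147) had no both-treatment region within 50 kb, and its nearest S2101 peak was at 9.68 kb. All 4 lay within 5 kb of vehicle H3K4me3.

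Of the other 6, those on chromosome 4 (132597953 to 132600012) and chromosome 10 (59746278 to 59748729), of scores 1077 and 1000, also lay within 5 kb of vehicle H3K4me3. Those on chromosome 12 (113263443 to 113265392), chromosome 5 (111487131 to 111488885) and chromosome 17 (47431251 to 47433242) had scores of 960, 954 and 950 and were distal, between 58.0 and 77.3 kb from it. Each of these 3 had a low S2101 peak within 500 bp, of score 118, 148 and 187. The last, on chromosome 4 (45470605 to 45472219, score 934), belonged to the second of the clusters above. High scores without a near S2101 peak were less common: of the 622 members of bin 10, 45 had none within 50 kb. The highest of these was on chromosome 2 (94127695 to 94129672, 1978 bp, score 911), with the nearest S2101 H3K4me1 peak 380 kb away and only 2 other members within 50 kb. The next were on chromosome 11 (101091855 to 101093682) and chromosome 6 (89609513 to 89611028), of scores 782 and 738, where an S2101 peak was first met at 57.0 and 200 kb. These 3 regions were picked after their values had been seen.

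The 5 widest members included the first and the sixth by score, on chromosomes 1 and 10 (3279 and 2452 bp). The other 3 were on chromosome 19 (42069495 to 42072070, 2576 bp), chromosome 15 (66645451 to 66647917, 2467 bp) and chromosome 9 (45652952 to 45655222, 2271 bp). On chromosome 19 an S2101 H3K4me1 peak of score 358 lay 332 bp away, and on chromosome 9 one of score 272 lay 326 bp away. On chromosome 15 the nearest was at 5.79 kb, and vehicle H3K4me3 was 74.2 kb away.

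**Figure D3:**
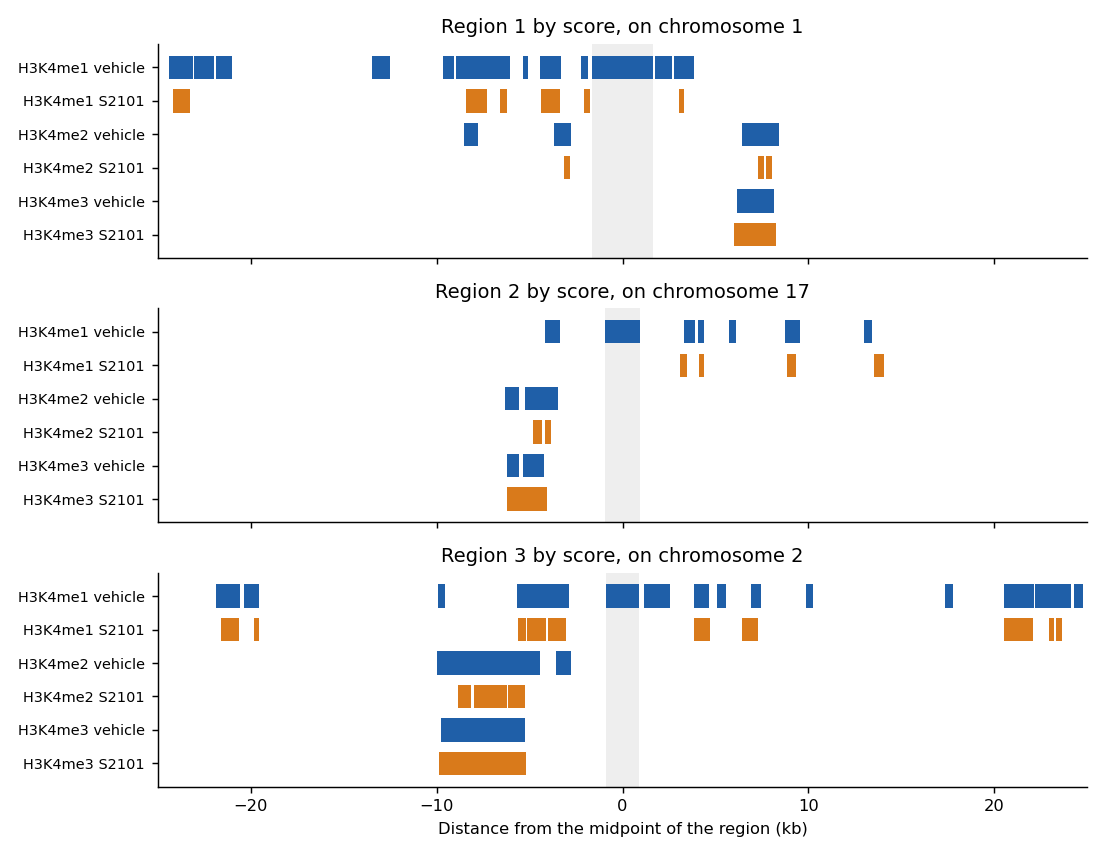
Peaks of the 3 marks with vehicle (blue) and S2101 (orange) around the 3 vehicle-only regions with the highest scores, by distance from the region's midpoint (kb); grey marks the region. No S2101 H3K4me1 peak lies in the grey spans, while S2101 H3K4me1 peaks lie nearby in each panel.

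Most members were distal to promoter-like chromatin, and the rule itself excludes any overlap with H3K4me3. The nearest H3K4me3 peak of either treatment was at a median of 29.4 kb (quartiles 10.0 and 69.1 kb), and 3.46% of members lay within 1 kb of one. It was within 10 kb for 24.9% of members (24.3 to 25.5%) and 26.9% of both-treatment regions (25.9 to 27.8%). With the score held, that difference was −1.05 points, with the same sign in 7 of 10 bins, and within 50 kb the shares were 65.6% (64.9 to 66.3%) and 70.1% (69.1 to 71.1%), a difference of −1.50 points with the score held, in 9 of 10 bins. The median distance was 25.0 kb for both-treatment regions, and it was shorter than that of the members in 7 of the 10 score bins, among them bins 6 to 10. H3K4me2 was somewhat nearer to both-treatment regions: a vehicle H3K4me2 peak lay within 10 kb of 40.2% of members and 47.3% of them, a difference of −4.18 points with the score held, in 9 of 10 bins. For vehicle-only regions, the share with H3K4me3 of either treatment within 1 kb, 3.46%, was close to the 3.29% of both-treatment regions (2.93 to 3.70%). Regions of H3K4me1 alone listed with S2101 only had a median distance to H3K4me3 of 27.0 kb, with 25.9% within 10 kb. A distal position was thus not particular to the members.

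Like vehicle H3K4me2 peaks in general, those nearest to the members were mostly listed again with S2101 over H3K4me3 and mostly not outside it. When the nearest vehicle H3K4me2 peak lay over H3K4me3, as it did for 10738 members, it was listed again with S2101 in 91.2% of cases (90.6 to 91.7%). When it lay outside H3K4me3, as for 8144 members, it was listed again in 23.2% (22.3 to 24.1%). For both-treatment regions the values were 91.6% and 25.0%, and with the score held the differences were 0.642 and −1.68 points, with mixed signs over the bins. Over all vehicle H3K4me2 peaks, 10.9% of those over H3K4me3 and 73.0% of those outside it had no S2101 counterpart. Beside members these shares were 8.81% and 76.8%, so the pattern was not particular to them. An H3K4me2 peak is counted once for each region to which it is nearest, at any distance unless a limit is given. Among nearest H3K4me2 peaks within 10 kb and outside H3K4me3, 23.1% were listed again beside members and 25.9% beside both-treatment regions, a difference of −2.87 points with the score held, in 9 of 10 bins. The larger gap was between H3K4me2 peaks over and outside H3K4me3.

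H3K4me1 at the nearest H3K4me3 region was compared in the same way. That region held vehicle H3K4me1 for 51.4% of members and 59.7% of both-treatment regions, against 39.1% of all 13934 H3K4me3 regions. Where it did, an S2101 H3K4me1 peak was absent from it for 59.9% of the members concerned and 54.0% of the both-treatment regions, against 68.0% of all H3K4me3 regions with vehicle H3K4me1. H3K4me3 regions are counted here once for each H3K4me1-only region to which they are nearest. With the score held, the share with S2101 H3K4me1 was lower beside members by 2.34 points, in 9 of 10 bins. Within 10 kb, the shares with S2101 H3K4me1 were 48.5% of 3076 and 56.5% of 1625, a difference of −5.65 points with the score held. The S2101 H3K4me1 list also set the rule, so these gaps are not independent of it and are no separate evidence.

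Around the midpoints of the members, vehicle H3K4me1 peaks covered 18.0% of positions at −1 kb, 8.19% at −5 kb and 6.0% at −20 kb. S2101 H3K4me1 peaks covered 6.49%, 3.16% and 2.17% at the same offsets, so coverage by both lists was higher at −1 kb than farther out. Around both-treatment regions the values were 30.1%, 13.5% and 8.33% with vehicle and 13.1%, 5.54% and 3.16% with S2101. At these offsets from the midpoint, members thus had less H3K4me1 coverage in both lists. Neither score nor width was held in this comparison, and both-treatment regions had the higher scores. They were also wider, and at −1 kb part of the coverage can lie inside the region itself. The S2101 H3K4me1 list also set the rule. H3K4me2 covered 5.06% of positions at −5 kb from the members with vehicle and 2.29% with S2101, and H3K4me3 covered 2.97% and 3.30%. The 0 at the midpoint in every list other than vehicle H3K4me1 is set by the rule. The rule also allows no S2101 H3K4me1 peak elsewhere inside a member, and that list covered 4.10% of positions at −500 bp and 0.45% at −250 bp.

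**Figure D4:**
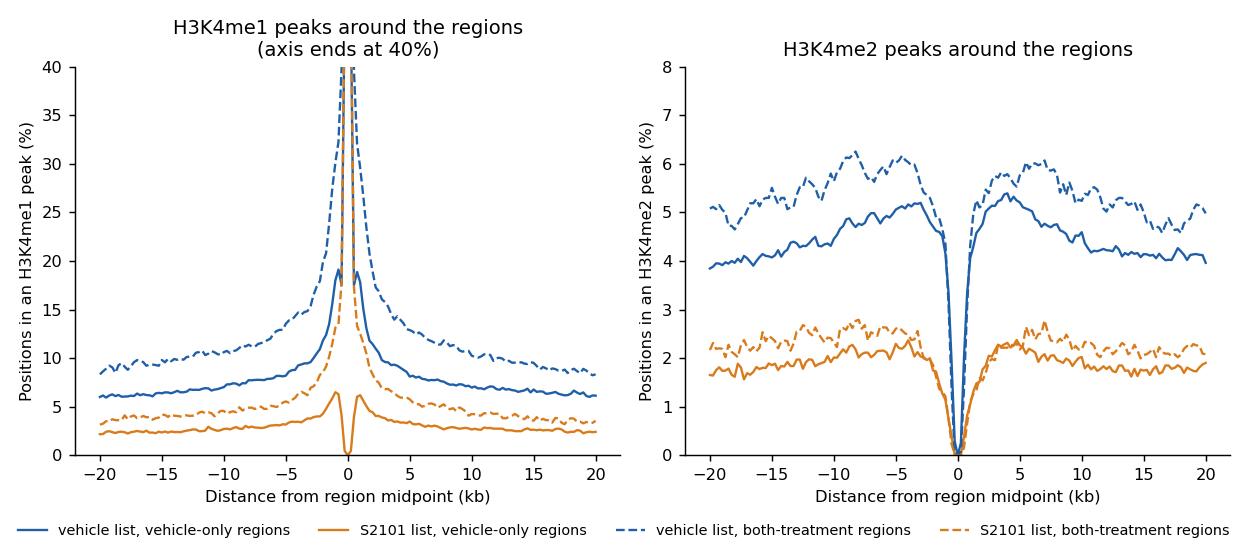
Percent of positions inside an H3K4me1 peak (left) or H3K4me2 peak (right) by distance from the region midpoint (kb), for vehicle-only (solid) and both-treatment regions (dashed), in the vehicle (blue) and S2101 (orange) lists. At −5 kb vehicle H3K4me1 covers 8.19% of positions around vehicle-only and 13.5% around both-treatment regions; the centre values follow from the rule.

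The vehicle-only share varied along the genome. Over the 19 autosomes it ranged from 59.3% to 78.1%, with a median of 69.2% and an SD of 4.73 points over chromosomes, which are not replicates. It was lowest on chromosome 15 (1110 of 1873 regions, 57.0 to 61.5%), chromosome 17 (63.2%) and chromosome 11 (66.0%). It was highest on chromosome 7 (989 of 1266 regions, 75.8 to 80.3%), chromosome 13 (75.5%) and chromosome 9 (75.2%). Scores differed too, with a median of 196 on chromosome 15 and 156 on chromosome 7. The shares that the score bins alone would give were 64.6% for chromosome 15 and 74.4% for chromosome 7, so the measured values lay 5.31 points below and 3.74 points above. On chromosome 6 the share, 75.1%, was 4.30 points above the value from its scores, and on chromosome 17 it was 4.73 points below.

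The number of members also varied in relation to promoters. There were 189 members per 100 vehicle H3K4me3 peaks on chromosome 15 and 188 on chromosome 1, against 101 on chromosome 7, with a median of 142 over the autosomes. The X chromosome had 55 members and 433 vehicle H3K4me3 peaks, or 12.7 members per 100. Its vehicle-only share was 87.3% of 63 regions (76.9 to 93.4%). The low number on X held for the both-treatment regions as well, of which it had 8. Another 11 members lay on unplaced sequences.

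**Figure D5:**
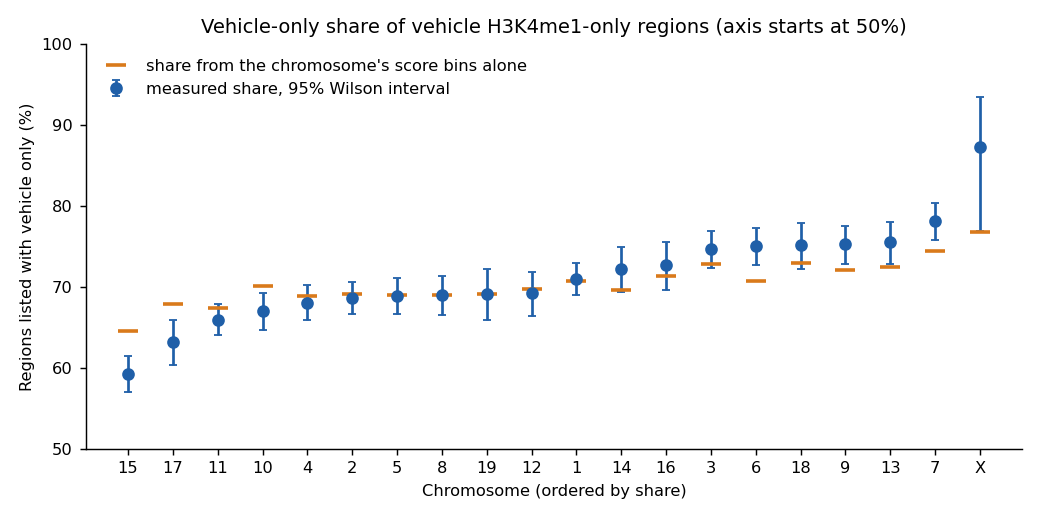
Share of vehicle H3K4me1-only regions listed with vehicle only (percent, blue points with 95% Wilson intervals) on each chromosome, ordered by share, with the share that the chromosome's mix of score bins alone would give (orange bars); the axis starts at 50%. Chromosome 15 (59.3%) and chromosome 17 lie below their orange bars, and chromosomes 6 and 7 (78.1%) above.

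On a finer scale, 305 windows of 5 Mb held at least 30 vehicle H3K4me1-only regions. Their vehicle-only share had a median of 71.2% (quartiles 64.9 and 78.0%) and ranged from 46.7% to 93.9%. The lowest window was on chromosome 8 from 90 to 95 Mb (42 of 90 regions, 36.7 to 56.9%), followed by chromosome 17 from 30 to 35 Mb (49 of 99). Chromosome 15 from 80 to 85 Mb (81 of 160) and from 55 to 60 Mb (113 of 216) were also among the lowest 5. The highest shares were in adjoining windows of chromosome 7, from 90 to 95 Mb (31 of 33, 80.4 to 98.3%) and from 95 to 100 Mb (39 of 42). The most members, 187 of 307 regions, lay on chromosome 11 between 115 and 120 Mb. Over windows the share fell with the median score (Spearman's rho −0.68) and with the number of regions (rho −0.52), 2 features that rest on the same libraries.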

How the data were processed

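ChIP-seq peak lists of 6 of the 12 samples were used; the 4 inputs and 2 H3 samples were not analysed here. The authors ran MACS in Galaxy, per the file headers, and deposited 1 list per library. The deposited score of each peak is the authors' value and was not rescaled. The tools Bowtie2 and deepTools and the build mm9 are named in the submitters' processing notes. Neither caller settings nor numbers of reads are stated there, so depth is unknown and peaks missed in a shallower library cannot be told from lost marks.

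Regions were merged at an overlap of 1 bp. Distances are the bases between nearest edges, and positions are 1-based. Wilson intervals are at 95% and cover counting error only, since neighbouring regions are not independent. For score-held values, regions were divided into 10 equal bins by vehicle score, and the differences were weighted by the vehicle-only regions; bins with fewer than 20 regions on either side would have been left out. These comparisons were added after the data had been seen. Named regions are the 10 of highest score, the 5 widest, 3 on each side of the rule, the 5 clusters with the most members and the 3 highest and lowest autosomes; other named regions and windows were chosen after their values were seen. No gene annotation or genome of mm9 was used here, so the planned gene context, gene lists and motifs were not made and no sequence is printed. The members and lists were chosen with earlier results of these data known. Interval functions were checked against bedtools 2.31.1 and tested on simulated data. Calculations used scipy 1.17.1, pandas 2.3.3 and numpy 2.4.6 under Python 3.11.15, and figures matplotlib 3.10.9.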

Additional observations from a re-analysis of the deposited data

How the results depend on the processing

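The number of vehicle-only regions was 18882 as defined, and 10122 with a score of at least 200 in all 6 lists, 5412 with that minimum in the vehicle H3K4me1 list only, 6893 with the vehicle list shortened to the S2101 list, and 9847 with peaks within 1 kb merged. The share of vehicle H3K4me1-only regions that were vehicle only, 69.8%, was 78.8%, 49.6%, 53.5% and 62.3% under these 4 settings, 80.2% when a list counted only where it covered at least 50% of the region, 54.0% when a peak within 1 kb counted as listed, and 70.6% without chromosome 15, a setting added after seeing the data. The median width of 473 bp became, in the same order, 755, 709, 664, 501, 511, 467 and 469 bp. The median distance to H3K4me3, 29.4 kb, was 28.5 kb with the vehicle minimum, 28.6 kb with the shortened list, 35.0 kb with merging within 1 kb, 28.5 kb with the 50% rule and 34.0 kb with the 1 kb rule. A minimum in the vehicle H3K4me1 list alone, like the shortening of that list, took regions away and added none. The minimum in all 6 lists also removed S2101, H3K4me2 and H3K4me3 peaks, and of its 10122 regions 5412 were among the 18882 and 4710 were not. The cause of the other changes was not tested. Of the 18882 members, 12839 stayed members under the 1 kb rule. Chromosome 15 had the lowest autosomal share under all 6 settings fixed beforehand; the highest was on chromosome 7, 13, 18 or 3. Members in clusters numbered 13638, and 11821 and 15399 with stitching within 5 and 20 kb. No paired analysis was possible because each mark and treatment has 1 library. The gene and motif alternatives were not run. Unknown depth limits every share here.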
